A study of Mus musculus with 8 samples.

Results

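Ligand-gated neurotransmitter receptor channels were examined in the retina of mice lacking Lpcat1, the enzyme that adds an acyl chain to lysophosphatidylcholine. The subunit genes were chosen by symbol, from the transcript accession that the array design gives for each probe, as every gene of the GABA-A, glycine, AMPA, kainate, NMDA, delta glutamate, nicotinic acetylcholine, P2X and 5-HT3 families. This gave 67 genes with 86 probes, of 20018 genes named in this way and 55681 probes on the array. Total RNA was taken from the whole retina of 2-week-old mice on 4 arrays of Lpcat1 WT and 4 arrays of Lpcat1 KO, both labelled as strain C57BL/6, with no treatment given to either. According to the study's methods, the KO line was a whole-body deletion made on C57BL6/N and crossed with C57BL6/J to remove the rd8 mutation of Crb1, and animals homozygous for rd8 were left out. Animals carrying a single rd8 copy were therefore not excluded from either genotype. The labels do not say whether the arrays hold separate animals or pooled retinas, so the p-values measure the spread between these samples, which may be technical.

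A ligand-gated channel opens when a transmitter binds to it and lets ions cross the membrane within milliseconds. GABA-A and glycine receptors pass chloride and are the inhibitory channels of amacrine, bipolar and ganglion cells, and the rho subunits form the slow GABA channels known from bipolar cell terminals. AMPA and kainate receptors carry excitation from photoreceptors to OFF bipolar and horizontal cells and from bipolar cells to the inner retina, where NMDA receptors also act. Nicotinic receptors answer acetylcholine from starburst amacrine cells, P2X receptors answer extracellular ATP, and 5-HT3 receptors answer serotonin. Rods and cones release the glutamate but are not where most of these subunits are known to be used.

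The level of a gene is the log2 processed signal of its brightest probe minus the 75th percentile of all non-control spots of that array. A difference is KO minus WT on this log2 scale. A probe entered the test if it was bright (well above background) on every one of the 4 arrays of one genotype or of both. A gene was called when limma's adjusted p over all 33972 tested probes was under 0.05 and the fold change over 1.2, which is 0.263 on the log2 scale. Lpcat1 itself had a level of -0.41 ± 0.03 in WT and -0.87 ± 0.06 in KO (SD, n = 4 each), a difference of -0.46 (SE 0.04, limma adjusted p = 0.0036), and whether its probe lies in the deleted part is not given in the sources used here. All 8 arrays came from 1 slide and 1 scan, and the WT arrays filled one of its rows and the KO arrays the next, which leaves slide position and genotype confounded: they cannot be told apart. Between 33110 and 36366 probes per array were well above background, and none of the spots was saturated. All 10 rod and all 10 bipolar markers were detected in both genotypes, and of 8 muscle markers 5 were bright enough to test (median difference -0.04, none called) and Ckm, Myh1 and Myh4 were well above background on no array. Of 8 retinal pigment epithelium markers 7 were tested, with a median difference of 0.10. Lens markers had a median of -0.13 (5 of 8 tested) and blood markers of 0.06 (5 of 6 tested). In none of these 3 lists was a gene called.

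Of the 67 subunit genes, 54 were tested and 13 were too dim. The difference was above 0 in 43 of the 54 and below 0 in 11, and its median was 0.11, whereas it was above 0 in 42.2% of all 14937 tested genes, with a median of -0.02. Of the subunits, 5 were called (9.26%), against 3.47% of all tested genes. The 4 called higher in KO were P2rx2, Glra4, Gabra4 and Glra1 (7.41%, against 1.99% of all genes), and the 1 called lower was Chrna5 (1.85%, against 1.49%). The count called higher was 0 with the replicate number as a block. With single arrays left out it ranged from 1 to 4, and it was 1 without WT replicate 2, WT replicate 3, WT replicate 4, KO replicate 2 or KO replicate 3. Others, Gabrr2 and P2rx4 among them, had an adjusted p under 0.05 but a fold change short of 1.2. With these included, 8 subunits had an adjusted p under 0.05 at any fold (14.8%, against 6.62% of all genes), and 7 of them were higher in KO (13.0%, against 3.3% of all genes). In 17 subunits every KO array was above every WT array (31.5%, against 8.78% of all genes), and in 2, Chrna5 and Grik4, every KO array was below (3.7%, against 12.4%). Most of the differences were small. Their median size without regard to sign was 0.12 on the log2 scale, against 0.08 over all tested genes. The subunits' median SD between arrays was 0.07 in WT and 0.09 in KO.

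**Figure D1:**
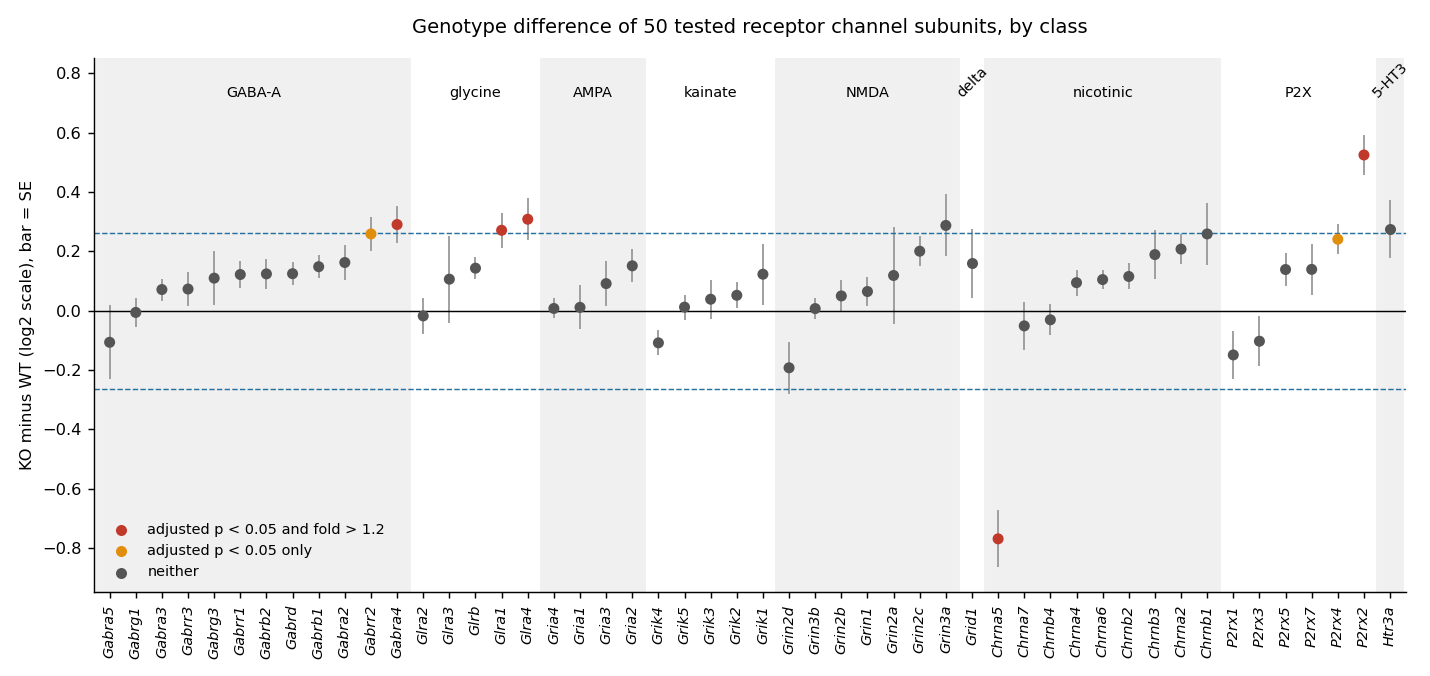
Difference between genotypes (KO minus WT, log2 scale) and its SE for 50 of the 54 tested subunits, ordered by size within each receptor class. Red points were called, orange points had an adjusted p under 0.05 only, and dashed lines mark a 1.2-fold change. Points lie mostly above 0 in the GABA-A class (10 of the 12 shown) and no glutamate receptor subunit was called, while Chrna5 sits alone at -0.77.

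Promoter sequences from RefSeq (build GRCm38.p6, 250 bases before to 50 after the start of the gene) were matched by symbol to 46 of the 67 subunits, among them 3 of the 5 called genes, Chrna5 with 2 start sites, Gabra4 and Glra4. They are shown because these genes carry the called differences. Capitals mark the GC box, GGGCGG or its reverse complement CCGCCC. The first Chrna5 promoter is chr9:54980630-54980929 on the plus strand, the second is chr9:54981238-54981537 on the plus strand, that of Gabra4 is chr5:71658259-71658558 on the minus strand and that of Glra4 is chrX:136779672-136779971 on the minus strand.
Chrna5 upstream start: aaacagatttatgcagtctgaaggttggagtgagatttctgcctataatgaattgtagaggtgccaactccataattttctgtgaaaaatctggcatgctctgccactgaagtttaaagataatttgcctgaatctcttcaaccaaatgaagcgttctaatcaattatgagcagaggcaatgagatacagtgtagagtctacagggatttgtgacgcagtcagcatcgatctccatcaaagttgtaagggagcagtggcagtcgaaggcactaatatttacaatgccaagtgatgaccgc
Chrna5 downstream start: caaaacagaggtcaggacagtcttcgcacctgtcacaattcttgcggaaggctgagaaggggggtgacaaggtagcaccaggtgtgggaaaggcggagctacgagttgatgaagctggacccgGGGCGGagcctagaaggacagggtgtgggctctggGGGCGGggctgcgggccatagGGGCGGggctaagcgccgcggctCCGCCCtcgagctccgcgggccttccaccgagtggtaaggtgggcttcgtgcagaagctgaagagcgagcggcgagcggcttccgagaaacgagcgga
Gabra4: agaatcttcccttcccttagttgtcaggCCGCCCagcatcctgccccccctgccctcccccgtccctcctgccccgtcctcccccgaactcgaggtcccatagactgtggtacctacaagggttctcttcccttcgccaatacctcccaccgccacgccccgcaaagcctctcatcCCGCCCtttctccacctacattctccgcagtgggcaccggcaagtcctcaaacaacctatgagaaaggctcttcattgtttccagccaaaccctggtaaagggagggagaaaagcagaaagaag
Glra4: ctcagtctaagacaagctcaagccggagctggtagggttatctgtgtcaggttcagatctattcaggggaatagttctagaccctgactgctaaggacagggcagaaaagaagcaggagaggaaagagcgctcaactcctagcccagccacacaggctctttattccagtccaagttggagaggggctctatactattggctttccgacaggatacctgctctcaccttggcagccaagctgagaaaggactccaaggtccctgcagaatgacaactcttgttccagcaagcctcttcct

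The 2 starts of Chrna5 differed in composition. The upstream one held 41.3% G or C and no GC box, and the downstream one held 65.0% with 4 GC boxes. Gabra4 held 58.7% with 2 GC boxes, and Glra4 held 51.3% with none. A GC box was found on either strand in 24 of the 46 subunits with a promoter (52.2%), against 38.2% of 27025 genes. The AP-1 element TGANTCA was found in 6.5% of the subunits and 9.0% of all genes, the Crx and Otx element GGATTA in 6.5% and 8.1%, and the E-box CAGCTG in 17.4% and 18.3%. None of these 3 elements was in the 4 promoters printed. Median G and C content was 58.0% over the subunits' promoters and 52.7% over all promoters. These matches describe letters in a window and were not tested as binding sites.

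Among the nicotinic subunits, Chrna5, an accessory alpha subunit that joins receptors built from other alpha and beta chains, had the largest difference of all 54 tested subunits. Its levels on the 4 WT arrays were -2.47, -2.48, -2.65 and -2.38, and on the 4 KO arrays -3.05, -3.22, -3.31 and -3.48. The lowest WT array was above the highest KO array. These levels come from 1 probe with 1 spot, and Chrna5 had no other probe to compare. Chrna5 differed by -0.77 (SE 0.10, limma adjusted p = 0.0096), 1.70-fold lower in KO. At the same thresholds it was called in each of 13 alternative settings and with each single array left out, although background correction by normexp, whose added offset of 50 narrows differences of dim probes, gave -0.37. Chrna5 lies on chromosome 9 beside Chrna3 and Chrnb4, its usual partners in the autonomic nervous system. Chrna3 was well above background on no KO array and on 1 WT array, and was not tested. Chrnb4 had levels of -1.93, -1.97, -2.02 and -1.98 in WT and -1.88, -2.00, -2.07 and -2.08 in KO, which overlap (difference -0.03, adjusted p = 0.760). On the other side of Chrna5, Psma4, a proteasome subunit, differed by -0.10 (adjusted p = 0.163).

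The other nicotinic subunits were not called. Of 16 in the class, 9 were tested, 6 with a difference above 0 and 3 below, with a median of 0.10. Chrna6 and Chrnb3, partners in receptors of ganglion cells and dopaminergic axons, lie side by side on chromosome 8. Chrna6 had levels of 4.13, 4.11, 4.15 and 4.14 in WT and 4.21, 4.24, 4.25 and 4.25 in KO. The genotypes did not overlap, but the difference was 0.10 (SE 0.03, adjusted p = 0.0967). Chrnb3 differed by 0.19 (SE 0.08, adjusted p = 0.219) with overlapping arrays. Chrna2, an alpha subunit of neuronal heteromers, had levels of 0.69, 0.70, 0.64 and 0.52 in WT and 0.80, 0.82, 0.86 and 0.89 in KO. Every KO array was above every WT array, and the difference of 0.21 (SE 0.05) had an adjusted p of 0.0527. Chrna4 and Chrnb2, which together form the most widespread high-affinity nicotine receptor of the brain, differed by 0.09 (adjusted p = 0.237) and 0.11 (adjusted p = 0.161), and the arrays of Chrnb2 did not overlap. Chrna7, which forms homomers, differed by -0.05 (adjusted p = 0.736). Chrnb1, known from the muscle endplate, was tested and differed by 0.26 (SE 0.10, adjusted p = 0.179), while its endplate partners Chrnd and Chrne were well above background on no array, Chrna1 on 1 and Chrng on 5 of 8. Chrna9 and Chrna10, the subunits of cochlear hair cells, were also well above background on no array.

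P2rx2, an ATP-gated channel subunit that forms homomers or joins P2rx3, had the largest difference in the higher direction. Its levels were -0.13, -0.07, 0.13 and -0.00 in WT and 0.50, 0.59, 0.38 and 0.56 in KO. All KO arrays were above all WT arrays, by a difference of 0.52 (SE 0.07, limma adjusted p = 0.0104), 1.44-fold higher in KO. A second P2rx2 probe, with levels of -4.40, -4.52, -3.83 and -4.28 in WT and -3.99, -3.37, -3.56 and -3.42 in KO, differed by 0.67 (SE 0.18, adjusted p = 0.0682). The arrays of this second probe overlapped at 1 WT value. The call of P2rx2 held with each array left out and in 12 of 13 alternative settings. It ended with the replicate number as a block (adjusted p = 0.0564), under which 0 subunits were called higher. Its neighbours on chromosome 5, the DNA polymerase gene Pole and the peroxisomal membrane gene Pxmp2, differed by -0.11 (adjusted p = 0.271) and -0.01 (adjusted p = 0.939).

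P2rx4, a P2X subunit of neurons and of microglia, had levels of 0.80, 0.86, 0.78 and 0.93 in WT and 1.05, 1.14, 1.01 and 1.13 in KO. The genotypes did not overlap, and the difference of 0.24 (SE 0.05, limma adjusted p = 0.0361) was short of 1.2-fold. P2rx7, its neighbour on chromosome 5 and a subunit known from microglia and macrophages, had levels of -3.48, -3.47, -3.46 and -3.31 in WT and -3.15, -3.52, -3.19 and -3.30 in KO. These overlapped, with a difference of 0.14 (SE 0.08, adjusted p = 0.366). P2rx1, known from smooth muscle and platelets, P2rx3, known from sensory neurons, and P2rx5 differed by -0.15 (adjusted p = 0.308), -0.10 (adjusted p = 0.498) and 0.14 (adjusted p = 0.186). P2rx6, detected on 3 WT arrays and 1 KO array, was not tested. The difference was above 0 in all 10 microglia markers, of which 6 were called higher, where 1.99% of all genes were. Their summed linear signal was 12.1 to 13.2 times the 75th percentile in WT and 15.7 to 16.4 times in KO. The part of microglia in the P2X values was not tested.

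**Figure D2:**
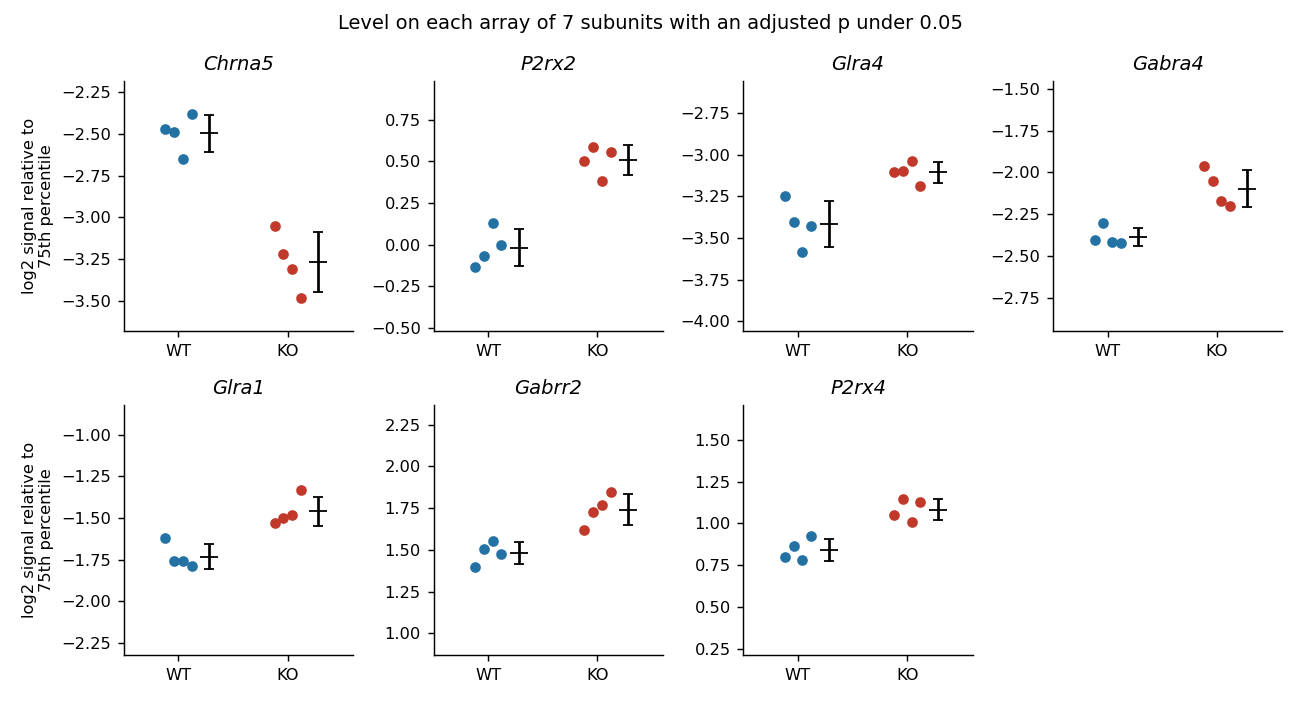
Level on each array (points) with mean and SD (bars) for 7 subunits whose adjusted p was under 0.05, WT in blue and KO in red, with axes of equal length so that the size of the shift can be compared between panels. In none of the 7 panels do the genotypes overlap, and the shift of Chrna5 (-0.77) and P2rx2 (0.52) is larger than the others, which lie between 0.24 and 0.31.

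In the glycine receptor class 2 subunits were called higher, where 1.99% of all genes were, and neither was called with the replicate number as a block. All 5 of its genes were tested, and 4 had a difference above 0, with a median of 0.14. Glra1, the alpha subunit of adult glycine receptors in spinal cord and in ganglion cells, had levels of -1.62, -1.76, -1.76 and -1.79 in WT and -1.53, -1.50, -1.48 and -1.33 in KO. All KO arrays were above all WT arrays. Glra1 differed by 0.27 (SE 0.06, limma adjusted p = 0.0401), and a second probe, also with no overlap, differed by 0.14 (SE 0.04, adjusted p = 0.0664). Glra4, an alpha subunit on the X chromosome whose human counterpart is a pseudogene, had levels of -3.25, -3.40, -3.58 and -3.43 in WT and -3.11, -3.10, -3.04 and -3.19 in KO. Again none overlapped, with a difference of 0.31 (SE 0.07, limma adjusted p = 0.0473). Leaving out 1 array ended the call of Glra4 in 7 of 8 cases (adjusted p up to 0.114, without WT replicate 2) and that of Glra1 in 6 of 8 (up to 0.108, without WT replicate 2). Background correction by normexp gave 0.13 for Glra4 (adjusted p = 0.219).

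Glrb, the beta subunit that ties glycine receptors to the scaffold gephyrin, had levels of 0.60, 0.60, 0.65 and 0.68 in WT and 0.76, 0.78, 0.77 and 0.80 in KO. The KO arrays were all above the WT arrays, and the difference was 0.14 (SE 0.04, adjusted p = 0.0587). Glra2, the alpha subunit of fetal and many amacrine cell receptors, differed by -0.02 (SE 0.06, adjusted p = 0.887), and Glra3, another amacrine and ganglion cell subunit, by 0.11 (SE 0.15, adjusted p = 0.705). The sign of both changed in some settings. The gephyrin gene Gphn differed by 0.03 (adjusted p = 0.704).

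GABA-A subunits were above 0 in 13 of the 15 tested (86.7%, against 42.2% of all genes), with a median of 0.12. Of the 15, 1 was called higher, where 1.99% of all genes were. Gabra4, an alpha subunit of receptors outside the synapse, had levels of -2.40, -2.31, -2.42 and -2.42 in WT and -1.96, -2.05, -2.17 and -2.20 in KO. No KO array was as low as a WT array. Gabra4 differed by 0.29 (SE 0.06, limma adjusted p = 0.0385), and leaving out any 1 array ended the call, with an adjusted p up to 0.102 without KO replicate 2. The call of Gabra4 also ended with the replicate number as a block (adjusted p = 0.0638). Its neighbour on chromosome 5, Gabrb1, had levels of 0.14, 0.09, 0.11 and 0.14 in WT and 0.24, 0.25, 0.25 and 0.33 in KO. These did not overlap either, with a difference of 0.15 (SE 0.04, adjusted p = 0.0603). Gabra2 and Gabrg1, farther along the same chromosome, differed by 0.16 (adjusted p = 0.147) and -0.01 (adjusted p = 0.953).

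Other GABA-A subunits were not called. Gabrb2, a beta subunit on chromosome 11, had levels of 1.91, 1.98, 1.87 and 1.95 in WT and 1.94, 2.05, 2.10 and 2.11 in KO. The genotypes overlapped at the lowest KO array, and the difference was 0.12 (SE 0.05, adjusted p = 0.181). Gabra6, the subunit of cerebellar granule cells, was well above background on no array. On chromosome 7, Gabrg3 differed by 0.11 (adjusted p = 0.514; second probe 0.32, adjusted p = 0.0939) and its neighbour Gabra5, detected on 3 of 4 KO arrays, by -0.11 (adjusted p = 0.645).

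The rho subunits are the GABA channel genes most closely tied to the retina. Gabrr2 had levels of 1.40, 1.51, 1.55 and 1.47 in WT and 1.62, 1.73, 1.77 and 1.84 in KO. Each KO array was above each WT array, by a difference of 0.26 (SE 0.06, limma adjusted p = 0.0438), again just short of 1.2-fold. Gabrr1, next to it on chromosome 4, had levels of 3.43, 3.49, 3.46 and 3.48 in WT and 3.49, 3.57, 3.62 and 3.65 in KO. These touched without overlapping, with a difference of 0.12 (SE 0.04, adjusted p = 0.148). Gabrr3 differed by 0.07 (SE 0.06, adjusted p = 0.483), with overlap. Of the remaining GABA-A genes, Gabrd, the delta subunit of tonic inhibition, differed by 0.12 (adjusted p = 0.0995) without overlap, Gabra3 differed by 0.07 (adjusted p = 0.294), and Gabre, Gabrp and Gabrq were well above background on no array.

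Glutamate-gated subunits gave no call. Of the 18 ionotropic glutamate receptor genes all were tested, 15 were above 0 and 3 below, with a median of 0.05, and 4 of the 18 had an unadjusted p under 0.05, as had 3914 of all 14937 genes. The 4 AMPA subunits were all above 0 and all overlapped on their brightest probe. Gria4, common in retinal AMPA receptors, had levels of 3.07, 3.08, 3.12 and 3.05 in WT and 3.09, 3.08, 3.10 and 3.09 in KO, within the same range (difference 0.01, SE 0.03, adjusted p = 0.919). Gria2, whose edited form keeps AMPA receptors closed to calcium, had levels of -0.55, -0.41, -0.49 and -0.47 in WT and -0.45, -0.34, -0.22 and -0.32 in KO. The 2 groups overlapped, with a difference of 0.15 (SE 0.06, adjusted p = 0.151) and 0.03 on a second probe. Gria3 differed by 0.09 (adjusted p = 0.510) and Gria1 by 0.01 (adjusted p = 0.944).

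Among kainate subunits, Grik4, a high-affinity subunit, had levels of 0.22, 0.13, 0.09 and 0.07 in WT and 0.03, 0.00, 0.01 and 0.03 in KO. All KO arrays were below all WT arrays, but the difference was -0.11 (SE 0.04, adjusted p = 0.169). Grik1, the kainate subunit known from OFF bipolar cells, differed by 0.12 (SE 0.10, adjusted p = 0.513), Grik3 by 0.04 (adjusted p = 0.766) and Grik5, the partner of the low-affinity subunits, by 0.01 (adjusted p = 0.895). Grik2 was the 1 gene whose tested probes differed in sign, at 0.05 (SE 0.04, adjusted p = 0.523) and -0.05 (SE 0.14, adjusted p = 0.871), both with overlapping arrays.

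Of the NMDA subunits, Grin1, required in every NMDA receptor, differed by 0.06 (SE 0.05, adjusted p = 0.454). The glutamate-binding subunits Grin2a and Grin2b differed by 0.12 (SE 0.16, adjusted p = 0.701) and 0.05 (SE 0.05, adjusted p = 0.623). Grin2c, best known from cerebellar granule cells, had levels of -1.20, -1.14, -1.21 and -1.10 in WT and -1.05, -0.93, -0.87 and -1.01 in KO. All KO arrays were above all WT arrays, with a difference of 0.20 (SE 0.05, adjusted p = 0.0587). Grin3a, which lowers calcium entry, differed by 0.29 (SE 0.10, adjusted p = 0.145) and Grin2d by -0.19 (SE 0.09, adjusted p = 0.232), both with overlap, and Grin3b by 0.01 (adjusted p = 0.930). Grid1, a delta subunit that organises synapses rather than acting as an ordinary channel, differed by 0.16 (SE 0.12, adjusted p = 0.448), a value that rests on KO replicate 3, at -1.57 against -2.11 to -2.05 on the other KO arrays and -2.11 ± 0.06 in WT (SD, n = 4). Htr3a, the subunit every 5-HT3 receptor needs, had levels of -2.07, -1.91, -1.97 and -2.06 in WT and -1.86, -1.87, -1.43 and -1.75 in KO. These did not overlap, yet the KO arrays were spread widely and the difference of 0.28 (SE 0.10) had an adjusted p of 0.138. Htr3b was well above background on no array.

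**Figure D3:**
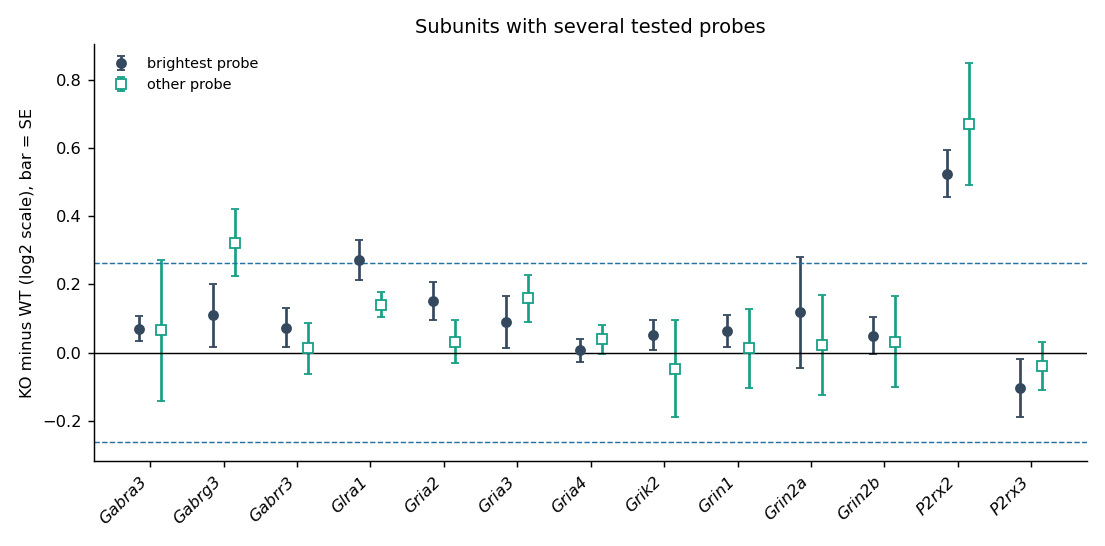
KO minus WT with its SE for 13 of the 14 subunits with several tested probes, the brightest probe filled and the other open, with dashed lines at a 1.2-fold change. Both probes of P2rx2 lie above the line, at 0.52 and 0.67, the probes of Glra1 lie on either side of it, at 0.27 and 0.14, and the probes of Grik2 lie on either side of 0.

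In all, 14 subunits had several tested probes. None of the 14 probes other than the brightest was called, and in 13 of the 14 genes both had the same sign. By position, 28 of the 67 subunits lie next to another subunit in 12 clusters, and none lies on chromosome 13, which carries Lpcat1. No cluster held more than 1 called gene.

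Taken array by array, the median over the 54 subunits of the level minus the WT mean was -0.01 to 0.01 on the WT arrays and 0.07, 0.11, 0.10 and 0.12 on the KO arrays, so it was higher on every KO array than on every WT array. The same median over all genes was -0.03 to -0.01 on the KO arrays. Markers of the retinal cell types moved in the same comparison. Over all tested genes, 42.2% were above 0, 1.99% were called higher and 1.49% were called lower. The 10 rod markers were all below 0 in KO (median -0.21, 3 called lower) and their summed linear signal was 1747 to 1806 times the 75th percentile in WT and 1493 to 1562 times in KO. The 10 amacrine markers were all above 0 (median 0.12, none called) with a summed signal between 99.8 and 102 in WT and between 110 and 111 in KO, and 9 of the 10 Müller glia markers were above 0 (median 0.18, 3 called higher) with 343 to 361 in WT and 409 to 418 in KO. The 10 cone markers were all above 0 (median 0.19, 2 called higher), with 256 to 261 in WT and 284 to 295 in KO. Of the ganglion cell markers 8 of 11 were above 0 (median 0.04, none called), and their summed signal lay between 191 and 193 in WT and between 197 and 204 in KO. Bipolar markers had a median of 0.01 with none called, and their sums overlapped, at 323 to 355 in WT and 330 to 349 in KO. The part of these cell types in the subunits' values was not tested. By these whole-retina arrays alone, fewer cells of a type and less RNA per cell cannot be told apart. For photoreceptors, the study reports apoptosis and a thinner outer nuclear layer in KO than in heterozygous mice, before the age sampled here. The share of that loss in the rod marker values was not tested.

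**Figure D4:**
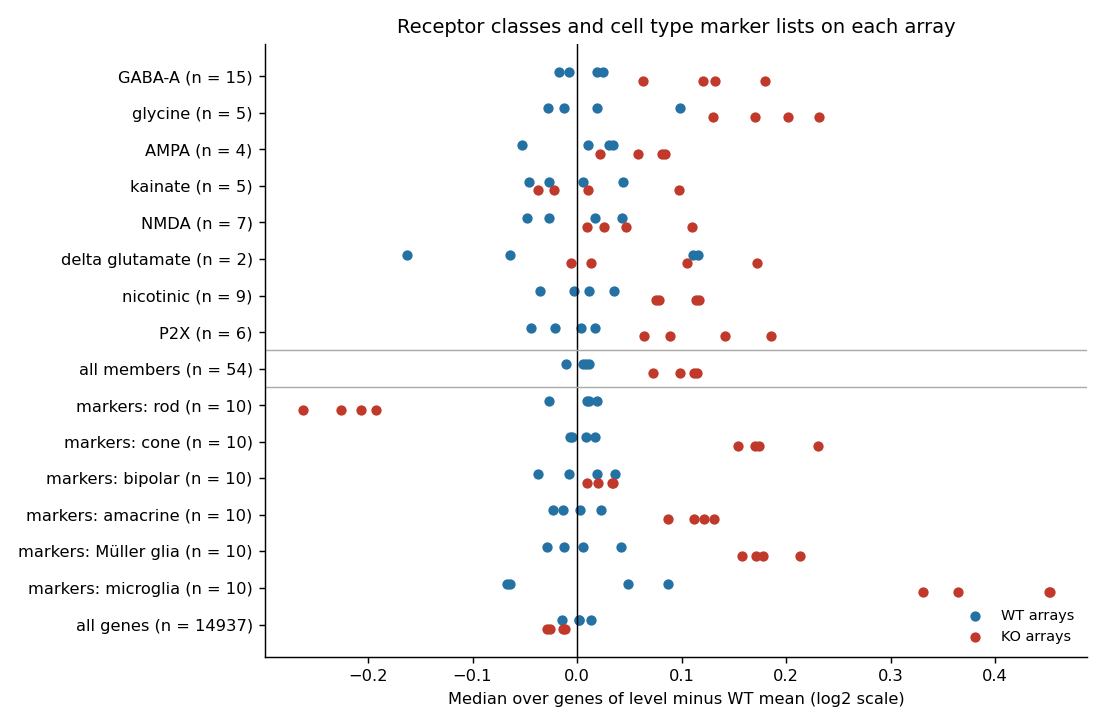
Median over genes of the level minus the WT mean, on the log2 scale, for each WT array (blue) and KO array (red), by receptor class, over all subunits, for cell type marker lists and over all genes. The KO arrays lie above the WT arrays for all subunits (0.07 to 0.12), near 0 for all genes, below for rod markers and above for amacrine, Müller glia and microglia markers.

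Genes that serve these channels were taken as 5 lists. Of 15 auxiliary subunits of AMPA and kainate receptors tested, none was called and the median was 0.04, with Cnih3 at 0.22 (adjusted p = 0.0643) and Cacng8 at -0.20 (adjusted p = 0.444) at the ends. Of 22 scaffold and trafficking genes tested, none was called and the median was 0.03. Gabarapl1, which carries GABA-A receptors to the surface, differed by 0.18 (SE 0.04, limma adjusted p = 0.0452), short of 1.2-fold. Among 12 genes of transmitter synthesis and breakdown, 10 were above 0 (83.3%, against 42.2% of all genes) and 1 was called, where 3.47% of all genes were. The called gene, Tph2, the neuronal enzyme of serotonin synthesis, had a level of -3.62 ± 0.10 in WT and -3.04 ± 0.11 in KO (SD, n = 4 each). Its difference was 0.58 (SE 0.07, limma adjusted p = 0.0096). Gad1 and Gad2, which make GABA, differed by 0.15 (adjusted p = 0.171) and 0.14 (adjusted p = 0.113), each without overlap. Of 14 transporters tested none was called, and Slc18a3, which loads acetylcholine into vesicles, differed by 0.25 (SE 0.05, limma adjusted p = 0.0386), short of 1.2-fold. Of 18 metabotropic receptors of the same transmitters, 17 were above 0 (94.4%, against 42.2% of all genes), with a median of 0.08 and none called. Chat, Slc18a3, Slc6a9, Gad1 and Gad2 also stand in the amacrine marker list, Glul and Slc1a3 in the Müller glia list, Slc17a6 in the ganglion cell list, Grm6 in the bipolar list and P2ry12 in the microglia list.

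**Figure D5:**
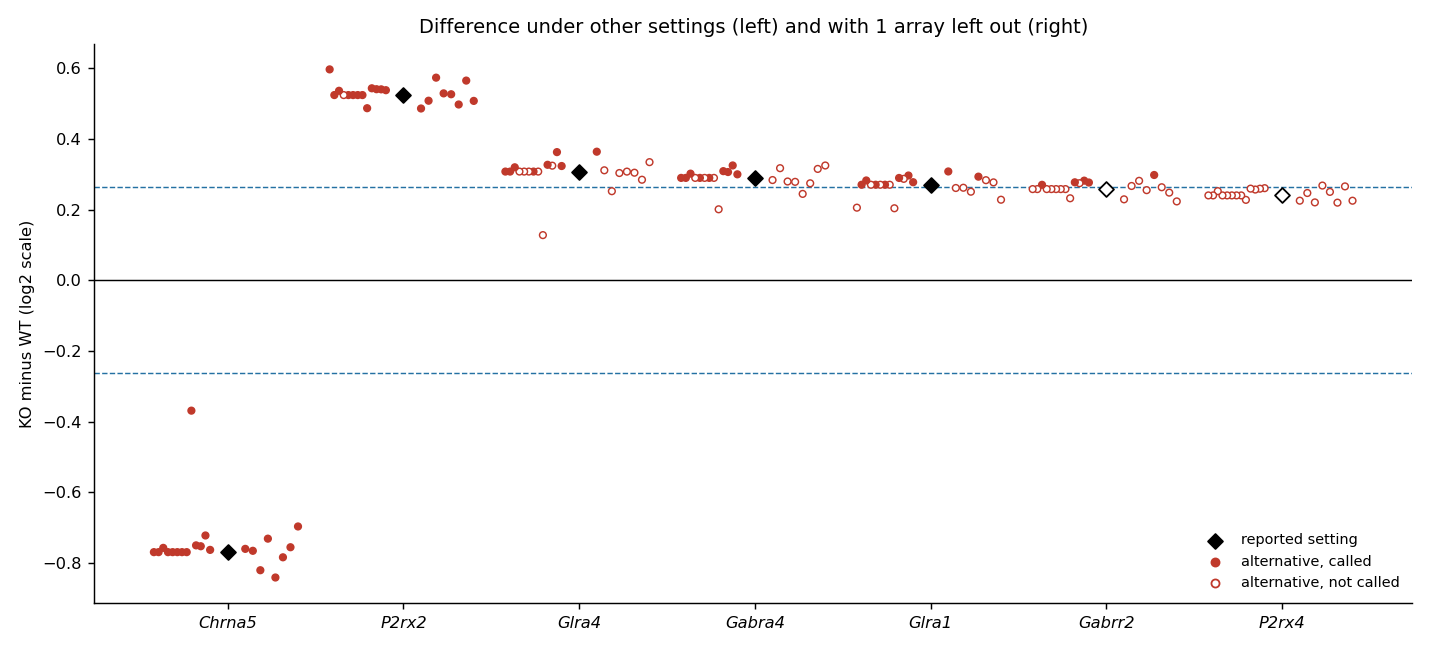
KO minus WT on the log2 scale for 7 subunits with an adjusted p under 0.05, as reported (diamond), in 13 alternative settings (left of the diamond) and with each array left out (right). Filled symbols were called and dashed lines mark a 1.2-fold change. Chrna5 keeps its call in all of them and P2rx2 in all but 1, while the other 5 lie close to the line and lose or gain the call, except P2rx4, which was called in none.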

How the data were processed

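The authors hybridised Cy3-labelled total RNA of whole retina to Agilent SurePrint G3 mouse arrays, and the scans were quantified with Agilent Feature Extraction 10.7.1.1 per the labels. The deposited scanner files hold intensity on a linear scale, background-subtracted, for 62976 spots per array. The deposited table of the series holds the authors' log2 values after their 75th percentile shift, which differ from the levels used here by 0.12 to 0.15 for each array and served as an alternative. Columns of samples outside the series: 0.

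The level of a spot was the log2 of its processed signal after subtracting, array by array, the log2 of the 75th percentile of the 59305 spots that are not controls. Control spots (3671) and outlier spots (86 to 147 per array) were left out, spots of a probe were averaged, and the brightest probe by its mean over 8 arrays stood for a gene. A RefSeq gene table, used for names and gene order only, named 26413 probes (47.4%). Its assembly, GRCm38.p6, differs from the build of the array design, so probe and gene positions are not given, and the coordinates printed are those of the RefSeq promoter windows alone. KO was set against WT in limma 3.58.1 (lmFit, then eBayes; R 4.3.3) with genotype as the single term, and p-values were adjusted by Benjamini-Hochberg over 33972 probes, of which 992 were called. Two-sided exact permutation tests of single members cannot give a p below 0.0286 with 4 arrays a group, the value reached wherever the groups did not overlap. The number of arrays limits the precision. The fit was tried on simulated data, where 117 of 150 larger changes were called. Of 50 smaller changes, about the size of the differences of Gabra4 and Glra4, 16 were called, and 4 unchanged probes were called falsely. A subunit that was not called may therefore still differ by such a small amount. The subunits, lists and tests were chosen with earlier results of these data known. Values of 4 subunits are not reported here by name, but they enter the counts and medians over the subunits. Members named are those called, a set group of well-known subunits, and the ends of each class. Alternatives covered scaling, background correction (normexp with an offset of 50 on the median spot signal), the filter on dim probes, the test, the thresholds, the replicate block, the probe rule and each array left out.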

Additional observations from a re-analysis of the deposited data

Results flagged for a closer look

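In 7 of 100 groups of 4 arrays checked, 1 array stood apart from the other 3 of its genotype by Dixon's criterion on its gap to the nearest of them, and chance gives about 1 in 20 such groups. In KO, replicate 4 was highest for Gabrb1, at 0.33 against 0.24 to 0.25 on the others. KO replicate 3 was highest for Grid1, at -1.57 against -2.11 to -2.05, and KO replicate 1 was lowest for Chrna6, at 4.21 against 4.24 to 4.25. In WT, replicate 2 was highest for Gabra4, at -2.31 against -2.42 to -2.41, and lowest for Grin3b, at -0.66 against -0.61 to -0.60. WT replicate 1 was lowest for Gabrr3, at -1.32 against -1.20 to -1.18, and WT replicate 4 was highest for P2rx7, at -3.31 against -3.48 to -3.46. Of the 5 called subunits, Gabra4 is the 1 among these, and its WT array that stood apart lay on the side of the KO arrays.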

How the results depend on the processing

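Chrna5 was called lower in every setting. The number of subunits called higher, 4 as reported, was 7 with no minimum fold, 0 with a fold over 1.5, 1 with normexp background correction, 1 with no filter on dim probes and 1 by the methods' t-test with Benjamini-Hochberg adjustment. It was 6 with quantile normalization, cyclic loess, the percentile of detected probes or the authors' values. It lay between 1 and 4 with single arrays left out, and was 1 without WT replicate 2, WT replicate 3, WT replicate 4, KO replicate 2 or KO replicate 3 and 2 without KO replicate 4. The count called lower was 1 each time. The median over the subunits, 0.11 as reported, was 0.15 with cyclic loess, 0.13 with a median shift, 0.13 with the 75th percentile taken over the probes that every array detected, 0.0891 with normexp, and 0.10 to 0.12 with single arrays left out. With normexp the difference of Gabra4 was 0.20. No scaling moved the median of all genes by more than 0.033.

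With the replicate number as a block, 0 subunits were called higher and 1 lower, the adjusted p of P2rx2 being 0.0564. Deviations of same-numbered arrays correlated at 0.25, 0.07, 0.04 and 0.11, all above 0. Every KO array correlated best with the WT array of its own number. WT replicates 1, 2 and 4 correlated best with the KO array of their own number. WT replicate 3 did so with KO replicate 4 (0.05, against 0.04 with KO replicate 3). Since 2 of the 4 same-numbered correlations are under 0.1 and the labels tie the numbers to nothing shared, the block was kept as an alternative. These values are a hint from the data, and whether the numbers mark a shared step is not given in the sources used here.

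Of the 50 tested subunits reported by name, 38 kept their sign in every setting and 12, none of them called in any, did not. Gabrg1 turned to 0.00391 (quantile), 0.0183 (cyclic loess), 0.0103 (median shift), 0.0128 (detected probes' percentile), 0.00610 (normexp) and 0.00570 (authors' values). Chrna7 turned to 0.00673 (cyclic loess) and 0.0141 (normexp), and Glra2 to 0.00114 (detected probes' percentile) and 0.00810 (normexp). Chrnb4 turned to 0.000189 with cyclic loess, and with normexp Gabra5 turned to 0.00137 and Grin3b to -0.00335. With single arrays left out, differences of both signs were found for Gria1 (-0.0521 to 0.0490), Chrna7 (-0.105 to 0.00374), Gabrg1 (-0.0288 to 0.0294), Grin3b (-0.00705 to 0.0221), Glra2 (-0.0602 to 0.0190), Glra3 (-0.0133 to 0.206), Gria4 (-0.00323 to 0.0206), Grik5 (-0.00565 to 0.0366), Grin2a (-0.00955 to 0.228) and Grik3 (-0.0101 to 0.0838). The cause was not tested. A slide block and a mapping by gene name column were not run, since the arrays share 1 slide and the files hold no such column.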
